A study of Mus musculus with 11 samples.

Results

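The variable (V) and joining (J) segments of the mouse T-cell receptor alpha locus were read across 11 RNA sequencing libraries of CD8 T cells sorted from spleen. They are the genes of the count table whose symbol starts with Trav or Traj, 189 of 52636 genes. Of these, 129 are V segments in 23 families and 60 are J segments. GENCODE M21 (build GRCm38) places all 189 on the forward strand of chromosome 14, the V segments between bases 52427928 and 53977678 and the J segments between 54155005 and 54218842. The constant gene Trac follows at chr14:54220521-54224206. The annotation marks 20 of the V and 9 of the J segments as pseudogenes. In 24 V segments no library had a count, and the remaining 105 V and all 60 J segments had at least 1.

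The alpha chain of the receptor is assembled in the thymus, where a recombinase joins 1 V segment to 1 J segment, and splicing then links the pair to the constant exons of Trac. A mature T cell therefore transcribes segments it rearranged, and all descendants of that cell carry the same rearrangements. The junction of V and J forms part of the loop that touches the peptide. The share of reads on each segment in bulk RNA depends in part on which rearrangements a population carries. J counts also fell on annotated J pseudogenes, at 3.05% to 14.6% of J counts in a library. J shares are therefore read as shares of counts, and how closely they follow rearrangements was not tested.

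All mice were C57BL/6. The naive group, 3 libraries, is labelled as CD44lo CD8 T cells, with a time entry of 6 to 8 weeks whose meaning is not stated. Its labels repeat the infection text of the other groups. Both memory groups, 4 libraries each, are labelled as CD8 T cells that bound a tetramer of the peptide NP396 of the virus LCMV, a reagent that selects cells by their receptor. They were taken 42 to 45 days (week 6) after 200000 pfu of the Armstrong strain and were separated by high or low CD45RB, a splice-dependent form of the surface phosphatase CD45. The labels leave unsaid whether replicates are separate animals, and p-values measure only how far these libraries vary, which may be technical. Replicate numbers are shared between the memory groups, and the labels do not say what a number stands for.

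Total counts ran from 18.02 to 23.2 M per library. V segments drew 4210 to 9150 counts per library, 20.8 to 29.0 for each 100 counts on Trac, and J segments drew 287 to 649. A segment's share is its counts as a percentage of all V or all J counts of the library. A count of 0 allows a V share of up to 0.033% to 0.071% and a J share of up to 0.462% to 1.05% (3 counts, counting error only), so J shares are much less precise. Counts follow both the number of cells with a rearrangement and the RNA per cell, which cannot be told apart here. Genes of CD8 T cells and their receptor summed to 8466 to 10558 CPM (counts divided by the total of their library, on a fixed scale) in all libraries, and Cd4 to at most 0.484 CPM. B cell markers summed to 50.1 to 57.2 CPM in naive libraries, with 4.67 to 13.8 in CD45RBhi and 3.67 to 5.06 in CD45RBlo. Macrophage markers ran from 25.7 to 47.0 CPM in naive and from 0.432 to 3.94 in memory libraries, and erythroid markers from 255 to 548 and from 0.238 to 23.6. The part of these cells in the results below was not tested.

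Sequences are given for the segments that the results turn on. Trav12-2 (ENSMUSG00000096656, chr14:53616315-53616914) had the highest V share in 11 of 11 libraries, also per base of exon. Its coding sequence of 344 bases is 96.8% identical to that of Trav12d-2, a copy upstream in the locus. Its last 300 bases, taken from GENCODE M21 transcripts like the sequences that follow, hold all 11 bases that differ from Trav12d-2, in capitals.
Trav12-2: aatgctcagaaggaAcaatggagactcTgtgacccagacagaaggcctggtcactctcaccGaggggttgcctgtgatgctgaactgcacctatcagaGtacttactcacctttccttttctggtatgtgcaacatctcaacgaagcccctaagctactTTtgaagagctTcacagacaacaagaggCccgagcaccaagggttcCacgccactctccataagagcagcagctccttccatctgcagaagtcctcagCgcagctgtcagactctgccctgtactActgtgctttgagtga

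A pair of Trav14 segments is shown because they belong to the same family and had different shares in memory cells. They are not each other's closest copies. Those are Trav14d-2 and Trav14n-2 for Trav14-2 (97.8% identical) and Trav14-3 for Trav14d-3-dv8 (97.2%). Trav14-2 (ENSMUSG00000095711, chr14:53640701-53641225) was low in every memory library, and Trav14d-3-dv8 (ENSMUSG00000094619, chr14:53078452-53079045) stayed high in those of 1 replicate number. Their coding sequences are 95.3% identical, with 17 differing bases, and the last 300 bases of each hold 16 of them, in capitals.
Trav14-2: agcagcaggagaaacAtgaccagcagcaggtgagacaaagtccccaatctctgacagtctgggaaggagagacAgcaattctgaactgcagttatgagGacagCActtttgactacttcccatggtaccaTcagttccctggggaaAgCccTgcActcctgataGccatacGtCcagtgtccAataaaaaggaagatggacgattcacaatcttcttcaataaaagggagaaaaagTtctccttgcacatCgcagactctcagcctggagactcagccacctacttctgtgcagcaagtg
Trav14d-3-dv8: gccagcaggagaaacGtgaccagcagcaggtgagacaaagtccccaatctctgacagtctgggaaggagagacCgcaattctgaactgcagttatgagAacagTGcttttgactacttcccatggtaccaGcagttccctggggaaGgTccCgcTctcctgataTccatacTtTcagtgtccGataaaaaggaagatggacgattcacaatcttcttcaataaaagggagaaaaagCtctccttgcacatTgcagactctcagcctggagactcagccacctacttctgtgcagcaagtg

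Neighbouring J segments, Traj21 to Traj17 (chr14:54198790-54201837), took the largest J shares in all 3 groups. Most J segments encode the residues FGXG, with X any amino acid, which close the loop in the receptor. The 12 bases for it (TTTGGNNNNGGN or TTCGGNNNNGGN, sense strand only, any reading frame) were found in 42 of 51 J genes and 1 of 9 J pseudogenes. Together these are 71.7% of all J segments, and the bases are in capitals. The reading frame was not checked, so a match need not encode FGXG.
Traj21: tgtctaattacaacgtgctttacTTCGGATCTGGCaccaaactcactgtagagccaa
Traj20: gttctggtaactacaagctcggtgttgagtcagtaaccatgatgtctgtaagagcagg
Traj19: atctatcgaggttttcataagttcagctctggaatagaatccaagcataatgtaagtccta
Traj18: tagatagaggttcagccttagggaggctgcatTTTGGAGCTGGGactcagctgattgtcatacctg
Traj17: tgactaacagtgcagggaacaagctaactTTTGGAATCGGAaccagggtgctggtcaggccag
No match was found in Traj20 and Traj19.

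In naive cells V counts were spread over many segments and families. The largest families in naive libraries were Trav14 at 14.5% ± 0.439 (SD, n = 3), Trav12 at 11.4% ± 0.882 and Trav7 at 10.8% ± 0.246. By single segments, Trav12-2 led with 5.97%, 7.22% and 7.46%, followed by Trav3-3 at 4.21% ± 0.208, Trav13-1 at 3.94% ± 0.355, Trav14-1 at 3.88% ± 0.471 and Trav14-2 at 3.33% ± 0.0968. The highest 15 segments were needed to reach 50% of V counts in each naive library. Copies of the V cluster carry the letters d or n in their symbols. The 39 d copies held 11.3% ± 0.365, the 35 n copies 15.2% ± 0.0765 and the 55 segments without a letter 73.5% ± 0.315 of naive V counts. Some copies, such as Trav12d-1 and Trav12n-1, have identical coding sequences, so this split also depends on how reads were assigned.

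Near-identical copies limit how counts are assigned among V segments. Over windows of 50 bases (the sources used here do not give the read length), the 24 V segments without a count had a median of 0% of windows found in no other V or J segment. For the 105 with a count the median was 46.8%. Segments with under 20% of such windows held 3.28% of V counts. Trav12-2 had 70.8%, Trav14-2 54.4%, Trav14d-3-dv8 61.2% and Trav5-1 100%, whereas Trav7-4 (24.9%) and Trav7d-4 (21.9%) are uncertain. Trav10n (36.4%) and Trav9-1 (40.4%) also lay below the median of 46.8%, so their counts are less certain too. All windows were unique in the 56 J segments long enough to hold one.

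The comparison of memory with naive cells sets memory cells chosen by 1 tetramer beside naive cells labelled CD44lo. The groups differ in memory state as well as in tetramer binding, and the design cannot tell these apart. In both memory groups V counts were concentrated on few segments, led by Trav12-2. Of the 66 V segments tested, 4 rose in CD45RBhi and 3 in CD45RBlo, where 22.3% and 22.4% of all genes did. In the same comparisons 16 and 17 fell, where 19.1% and 19.8% of all genes did. Segments high in naive cells alone can enter these counts through the filter. Segments of the Trav14, Trav13 and Trav4 families were prominent among those that fell, and Trav12-2 and Trav5-1 were among those that rose. Few J segments passed.

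Of 189 segments, 66 V and 17 J passed the filter on low counts and were tested with edgeR's quasi-likelihood test over all 13735 genes. In CD45RBhi against naive libraries 4 V segments rose and 16 fell at an adjusted p under 0.05, where 22.3% of all genes tested rose and 19.1% fell. No J segment passed in that comparison, with 1 at an unadjusted p under 0.05 and 0 by DESeq2. In CD45RBlo against naive libraries 3 V segments rose and 17 fell, and 1 J segment rose and 1 fell, against 22.4% and 19.8% of all genes. Both comparisons use the same 3 naive libraries. Median log2 fold changes over the V segments tested were -0.46 and -0.65, beside -0.01 over all genes in each, and over the J segments -0.28 and -0.40. Relative to total V or J counts, the medians were -0.72 and -0.72 over V segments and 0.06 and 0.01 over J segments, so the direction for J segments turned. Measured this way, the rise of Trav12-2 by itself lowers the values of the other V segments, since their total is fixed. With library size scaling the median of all genes shifted to -0.16 and -0.14, and 2301 genes rose and 3724 fell in CD45RBhi (3064 and 2630 with TMM) and 2356 rose and 3609 fell in CD45RBlo (3072 and 2722). A segment that is high in naive cells alone can pass the filter through that group, so these counts and medians describe the segments tested and not the locus. The CD45RBhi count of 20 was 11 without naive replicate 1, 2 or 3, and the CD45RBlo count of 22 was 14 without naive replicate 1.

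Trav12-2 held 23.8%, 17.5%, 22.7% and 34.2% of V counts in CD45RBhi replicates 1 to 4, and 33.6%, 17.2%, 16.8% and 37.5% in CD45RBlo replicates 1 to 4. The exact 95% binomial interval of the lowest of these, in CD45RBlo replicate 3, is 15.7% to 17.96%, and that of the highest naive share is 6.82% to 8.14%. Every memory library lay above every naive one. Trav12-2 rose by 2.07 ± 0.382 log2 units (SE) in CD45RBhi (adjusted p = 0.000799) and by 2.06 ± 0.382 in CD45RBlo (adjusted p = 0.000776). Measured against total V counts in place of all counts, the changes were 1.83 and 1.93.

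Trav5-1 (ENSMUSG00000076761, chr14:52622566-52623082) was at 1.20%, 1.12% and 1.06% in naive libraries. It reached 6.10%, 5.67%, 1.77% and 7.17% in CD45RBhi and 2.70%, 6.14%, 0.665% and 8.06% in CD45RBlo libraries. All CD45RBhi libraries lay above naive, while CD45RBlo replicate 3 lay below. The log2 fold changes were 2.50 ± 0.781 (adjusted p = 0.0215) and 2.21 ± 0.776 (adjusted p = 0.0361), and neither passed without naive replicate 1, 2 or 3 (adjusted p from 0.0639 to 0.1004). The CD45RBlo call also did not pass without CD45RBlo replicate 2 or 4 (adjusted p = 0.0727 and 0.106).

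Trav7-4 was at 2.56% ± 0.397 of naive, 4.49% ± 0.987 of CD45RBhi and 4.35% ± 1.41 of CD45RBlo V counts. It rose by 1.06 log2 units in CD45RBhi (adjusted p = 0.0245), with 0.88 in CD45RBlo (adjusted p = 0.0528), and the CD45RBhi call was lost without naive replicate 1 or 2 or CD45RBhi replicate 2 or 4 (adjusted p from 0.0509 to 0.0999). Trav10n was the remaining V segment that rose in CD45RBhi, by 1.58 (adjusted p = 0.0209), and it rose by 1.34 in CD45RBlo (adjusted p = 0.0431). The CD45RBhi call was lost without naive replicate 1, 2 or 3 or CD45RBhi replicate 1 (adjusted p from 0.0539 to 0.0703). The CD45RBlo call was lost without naive replicate 1, 2 or 3 or CD45RBlo replicate 1, 3 or 4 (adjusted p from 0.0520 to 0.117), with library size scaling (0.0590) and relative to total V counts (0.0635). Its shares were 0.929% to 0.983% in naive libraries, 1.30% to 4.12% in CD45RBhi and 0.554% to 3.79% in CD45RBlo libraries. CD45RBlo replicate 2 was the memory library below naive.

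**Figure D1:**
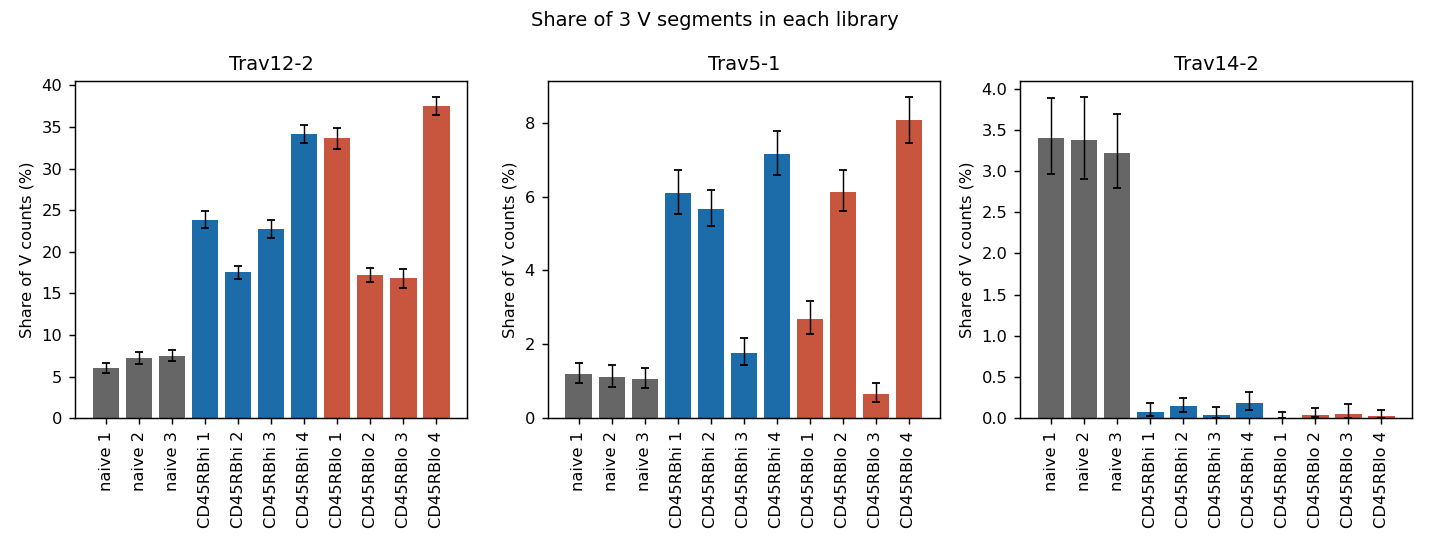
Share of V counts (%) of Trav12-2, Trav5-1 and Trav14-2 in each of the 11 libraries, with a separate vertical axis for each segment. Bars are single libraries and whiskers exact 95% binomial intervals, which cover counting error only; Trav12-2 is above 16% in every memory library, and Trav14-2 is near 0.

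Lower shares were found in several families. The shares of a library have a fixed total, so the larger Trav12-2 share by itself lowers those of other segments to some extent. Trav14 held 14.0% to 14.9% of V counts in naive and 0.932% to 6.93% in memory libraries, with 3 of its 5 tested segments called lower in each comparison, where 19.1% and 19.8% of all genes were. Segments high in naive cells alone can enter this and the following family counts through that group. Trav14-2 had 212, 178 and 200 counts in naive libraries. It had 5, 13, 2 and 13 counts in CD45RBhi and 0, 3, 2 and 2 in CD45RBlo libraries. No memory library reached 0.2% of V counts, and the groups did not overlap with naive. The log2 fold changes were -4.56 ± 0.451 (adjusted p = 4.3e-06) and -6.66 ± 0.544 (adjusted p = 6.83e-07). Trav14-1, another highly used naive member of the family, was at 1.87% ± 1.31 and 1.60% ± 1.10 in the memory groups and did not pass (-0.78, adjusted p = 0.32, and -1.17, adjusted p = 0.139). Its memory share ran from 0.366% to 3.55% and overlapped with naive.

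Trav13 held 7.91% ± 0.121 of naive, 2.59% ± 1.23 of CD45RBhi and 1.93% ± 0.288 of CD45RBlo V counts. In each comparison 4 of its 7 tested segments were called lower, where 19.1% and 19.8% of all genes were. Its main member Trav13-1 (ENSMUSG00000076839, chr14:53545014-53545525) was at 4.29%, 3.94% and 3.58% in naive libraries. It was at 1.66%, 0.853%, 0.530% and 1.71% in CD45RBhi and at 1.24%, 0.230%, 0.475% and 0.989% in CD45RBlo libraries, with no overlap with naive. Trav13-1 fell by 1.46 log2 units in CD45RBhi (adjusted p = 0.0322) and by 2.32 in CD45RBlo (adjusted p = 0.00286). Without any 1 naive library or without CD45RBhi replicate 2 or 3 the first call was lost, with adjusted p from 0.0567 to 0.0858.

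Trav4 held 2.52% ± 0.234 of naive and 0.450% ± 0.210 and 0.381% ± 0.154 of memory V counts, with 2 of 3 tested segments lower in CD45RBhi and 3 of 3 in CD45RBlo. In Trav8, 3 and 2 of 5 tested segments were called lower. Beside these family counts, 19.1% and 19.8% of all genes were lower. Of 6 tested segments that are the only member of their family, Trav19 and Trav2 fell in both comparisons and the others did not pass. Trav19, a segment near the J end of the V cluster, went from 1.69% ± 0.0981 to 0.162% ± 0.109 and 0.0958% ± 0.0697, and Trav2, near the other end, from 1.29% ± 0.117 to 0.0865% ± 0.0813 and 0.0425% ± 0.0215. None of the 10 tested Trav6, 6 tested Trav9 and 3 tested Trav16 segments passed in either comparison. Those families held 5.35%, 7.41% and 7.74% of naive V counts, and in memory libraries their means lay between 4.68% and 9.33%.

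The segments of invariant T cells were read whatever their values. Trav11, the V segment of invariant natural killer T cells, had 1 count in all, in CD45RBhi replicate 2, but none of its windows was unique. The summed shares of Trav11 and its d and n copies were at most 0.325% in any library. Traj18, its J partner, was at 8.47% to 10.3% of naive and 8.71% to 12.4% of memory J counts. Zbtb16, the transcription factor of those cells, had 0 to 10 counts per library. Trav1, used by mucosal-associated invariant T cells, was at 1.32%, 1.65% and 0.838% of naive V counts and at 0% to 1.16% in memory libraries, with 0 counts in replicate 1 of both memory groups. Its partner Traj33 was at 2.56% ± 0.215, 2.59% ± 1.29 and 2.69% ± 1.30 of J counts. Neither Trav1 nor Traj33 passed a test against naive (adjusted p from 0.359 to 0.677). Genes of gamma-delta receptor constant regions summed to 6.82 to 8.43 CPM in naive and 30.8 to 71.5 CPM in memory libraries. The defining delta gene Trdc, which lies within the alpha locus, went the other way, with 114 to 145 counts in naive and 6 to 29 in memory libraries. The part of gamma-delta T cells in the V shares was not tested.

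How evenly the counts were spread was summarised by the inverse Simpson index, the number of equally used segments that would give the same concentration. The effective number of V segments was 40.2, 39.6 and 38.9 in naive libraries. It was 10.4, 15.8, 12.02 and 7.33 in CD45RBhi and 7.30, 13.4, 13.0 and 6.05 in CD45RBlo libraries. All memory libraries were below all naive ones, and 3 to 7 segments held 50% of their V counts. The memory mean over the 4 replicate numbers was 10.7 and the naive mean 39.6. The difference of 28.9 had p = 0.0571 (exact permutation test, two-sided, 3 naive libraries against 4 numbers), the smallest p this design can give. Without Trav12-2 the effective numbers were 41.5 to 42.9 in naive and 14.3 to 21.8 in memory libraries. For comparison, V segments of the beta chain gave 13.7 to 13.9 in naive and 4.88 to 8.05 in memory libraries.

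**Figure D2:**
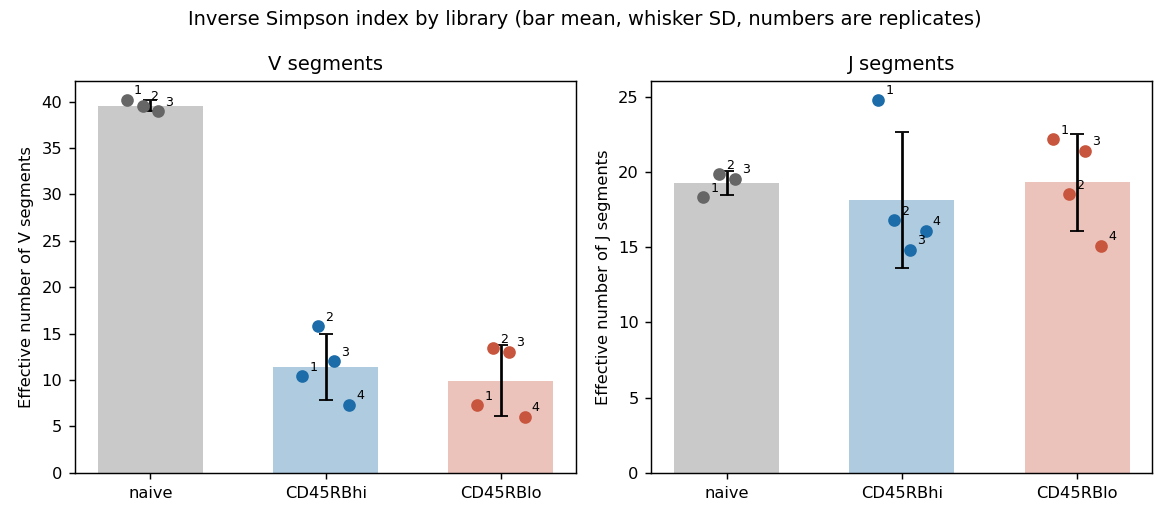
Effective number (inverse Simpson index) of V segments, left, and J segments, right, in each library. Points are libraries labelled by replicate number, bars are group means and whiskers SD; for V segments the naive libraries lie near 40 and all memory libraries at or below 15.8, and for J segments the groups overlap.

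The effective number of J segments did not separate the groups. It was 18.3 to 19.9 in naive libraries, 14.8 to 24.8 in CD45RBhi and 15.1 to 22.2 in CD45RBlo libraries, with a difference of 0.533 between naive libraries and memory numbers (p = 0.743, exact permutation test, two-sided). Traj17 to Traj21 together held 42.5% to 46.5% of naive J counts and 30.8% to 54.1% of memory J counts. Traj19 led in naive libraries at 12.4%, 10.6% and 10.8%, Traj18 in CD45RBhi at 10.7% ± 1.01 and Traj20 in CD45RBlo at 10.03% ± 2.00. J segments without the FGXG bases, Traj19 and Traj20 among them, held 26.3% to 36.1% of J counts in a library, and annotated J pseudogenes 3.05% to 14.6%. The largest of the pseudogenes, Traj8, was at 5.33% ± 1.07 in naive libraries, 4.56% ± 2.80 in CD45RBhi and 4.23% ± 1.72 in CD45RBlo libraries.

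**Figure D3:**
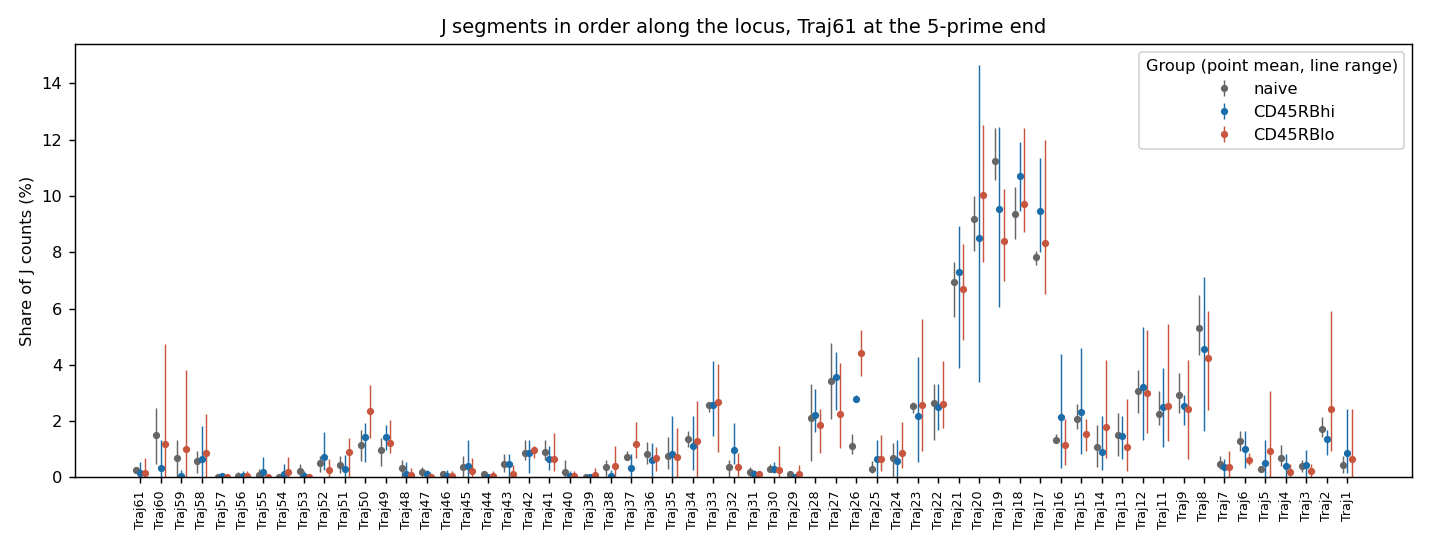
Share of J counts (%) of each J segment, in order along the locus from Traj61 to Traj1 and towards Trac. Points are group means and lines the range over 3 naive, 4 CD45RBhi and 4 CD45RBlo libraries; the shares peak at Traj17 to Traj21 in all 3 groups.

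Summed J counts were 29.0 ± 5.16 CPM in naive libraries, 20.5 ± 3.83 in CD45RBhi and 19.98 ± 3.36 in CD45RBlo libraries, while V counts were 309 ± 21.5, 329.5 ± 58.7 and 301 ± 60.5 CPM. The J segments called in CD45RBlo were Traj26, at under 1 CPM in every group mean, and Traj19. Traj26 was at 0.956%, 0.828% and 1.54% of naive J counts. It was at 2.67%, 2.81%, 2.93% and 2.77% in CD45RBhi and at 5.23%, 3.78%, 3.60% and 5.01% in CD45RBlo libraries. These shares rest on 4 to 10 counts in naive, 10 to 17 in CD45RBhi and 15 to 23 in CD45RBlo libraries. The shares of the 3 groups did not overlap, but counting error on so few counts is large. Traj26 passed against naive in CD45RBlo (1.50 ± 0.417, adjusted p = 0.0112) and not in CD45RBhi (0.92 ± 0.422, adjusted p = 0.0984). The CD45RBlo call was lost without naive replicate 1 or 2 (adjusted p = 0.0593 and 0.0599). In CD45RBhi Traj26 passed relative to total J counts (1.29, adjusted p = 0.0186) and without naive replicate 3 (1.41, adjusted p = 0.0393). Between CD45RBhi and CD45RBlo it differed by -0.58 ± 0.356 (adjusted p = 0.674). Traj19 fell by 0.80 log2 units in CD45RBlo (adjusted p = 0.0418) with a log2 fold change of -0.62 in CD45RBhi (adjusted p = 0.107), and its memory shares of 6.07% to 12.5% overlapped with naive. That call was lost relative to total J counts (-0.41, adjusted p = 0.269), without the filter on low counts (adjusted p = 0.0915) and without any 1 naive library or CD45RBlo replicate 1, 2 or 3 (adjusted p from 0.0603 to 0.136).

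The order of J segments along the locus was read because early rearrangements use J segments near the V cluster and later ones move towards Trac. J counts also fell on pseudogenes, so the share below describes counts, and the order of rearrangement itself was not tested. Traj31 and the segments upstream of it held 18.5%, 18.4% and 14.9% of naive J counts. The memory numbers averaged 16.5% against 17.3% in naive (p = 0.629, exact permutation test, two-sided). Memory libraries ran from 12.9% to 26.4% and overlapped with naive.

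Setting CD45RBhi beside CD45RBlo memory asks whether cells of unlike CD45RB level but the same specificity use the same segments. Without regard to replicate numbers, no V or J segment passed. Within a number, the CD45RBhi and CD45RBlo libraries were closer to each other in V shares than libraries of different numbers, and in J shares they were closer on average. With the number as a block, 3 V segments were higher in CD45RBhi.

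Of the 66 V and 17 J segments tested, 0 passed in either direction, with 1 V and 0 J segments at an unadjusted p under 0.05 and 0 passing by DESeq2. Over all genes 0.0801% were higher and 0.0437% lower in CD45RBhi. Trav12-2 differed by 0.01 ± 0.326 log2 units (adjusted p = 0.998), and CD45RBhi was above CD45RBlo in 2 of 4 numbers. The effective number of V segments was higher in CD45RBhi in 3 of 4 numbers, by 1.45 on average (p = 0.25, exact paired permutation test, two-sided, smallest possible 0.125). For J segments the mean difference was -1.17 (p = 0.75, same exact test).

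The distance between libraries was taken as the sum of absolute share differences divided by 2, in percentage points, where 0 means equal shares. For V segments, CD45RBhi and CD45RBlo libraries of the same number were 12.2 to 20.3 points apart, with a mean of 17.6. Those of different numbers were 31.5 to 53.9 apart, with a mean of 45.1, and the ranges did not overlap. The same-number mean was the smallest of all 24 ways to match the numbers (p = 0.0417, exact permutation test, one-sided, the smallest p possible). In 8 of 8 memory libraries the nearest memory library by V shares was that of the same number in the other group. Naive libraries were 8.50 points apart on average, and naive and memory libraries 50.1.

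For J segments the means had the same order with a smaller gap, and the ranges overlapped. Same-number pairs were 17.7 to 23.9 points apart and different numbers 21.1 to 35.6, with means of 21.3 and 29.1 (p = 0.0417, exact permutation test, one-sided, the smallest p possible). The nearest memory library had the same number in 6 of 8. Naive libraries, which had 483 to 649 J counts each, were 17.1 points apart on average, and naive and memory libraries 23.3.

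**Figure D4:**
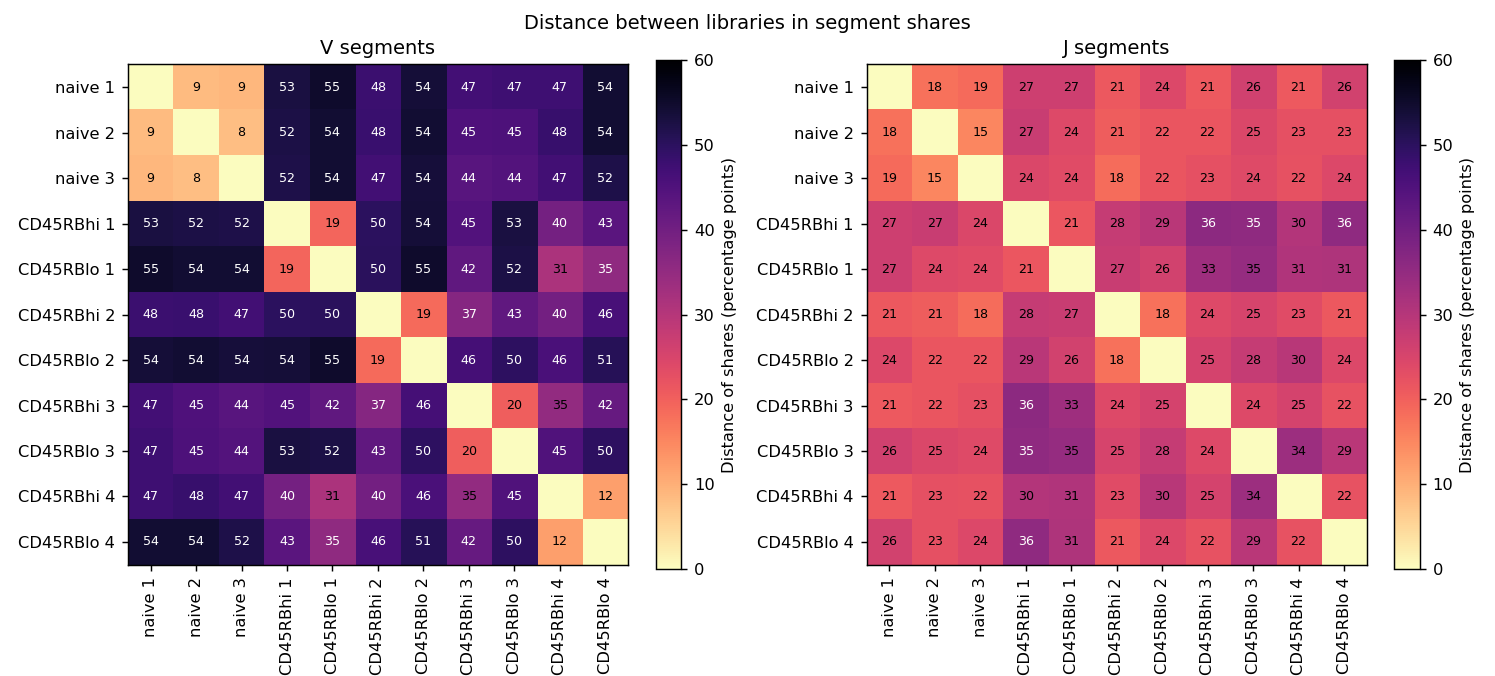
Distance between each pair of libraries in V shares, left, and J shares, right, in percentage points (0 means equal shares), with memory libraries ordered by replicate number. In V shares, same-number memory pairs are 12.2 to 20.3 apart and other CD45RBhi to CD45RBlo pairs 31.5 to 53.9.

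Some V segments were high in both memory libraries of 1 number and low in all others. They were chosen by their shares (at least 3% in both libraries of a number and at least 3 times the share in each of the other 6 memory libraries), so their values are a description. Trav7d-4 was at 11.7% in CD45RBhi and 15.9% in CD45RBlo of number 3, and at most at 2.35% elsewhere in memory. Trav7-1 was at 8.03% and 11.2% in number 2 and at most at 1.44% elsewhere. Trav12-1 was at 5.24% and 6.98% in number 4, with at most 1.12% elsewhere. These 3 segments were at 1.16% ± 0.181, 1.23% ± 0.232 and 2.36% ± 0.457 in naive libraries.

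Number 1 had 2 such segments, Trav6n-6 at 4.79% and 4.82% and Trav14d-3-dv8 at 3.27% and 3.54%, with at most 0.896% and 0.523% elsewhere in memory. Trav14-2, a segment of the same family as Trav14d-3-dv8, stayed at 0.0793% and 0% in the same libraries. The naive share of Trav14d-3-dv8 was 2.52% ± 0.343. Trav17 was at 3.75% and 3.94% in number 3 and at most at 0.459% elsewhere in memory. No J segment met the rule. Among those just outside it were Trav8d-2 in number 2 (5.74% and 9.64%, 2.66 times the next library) and Trav6-2 in number 1 (5.04% and 2.68%).

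**Figure D5:**
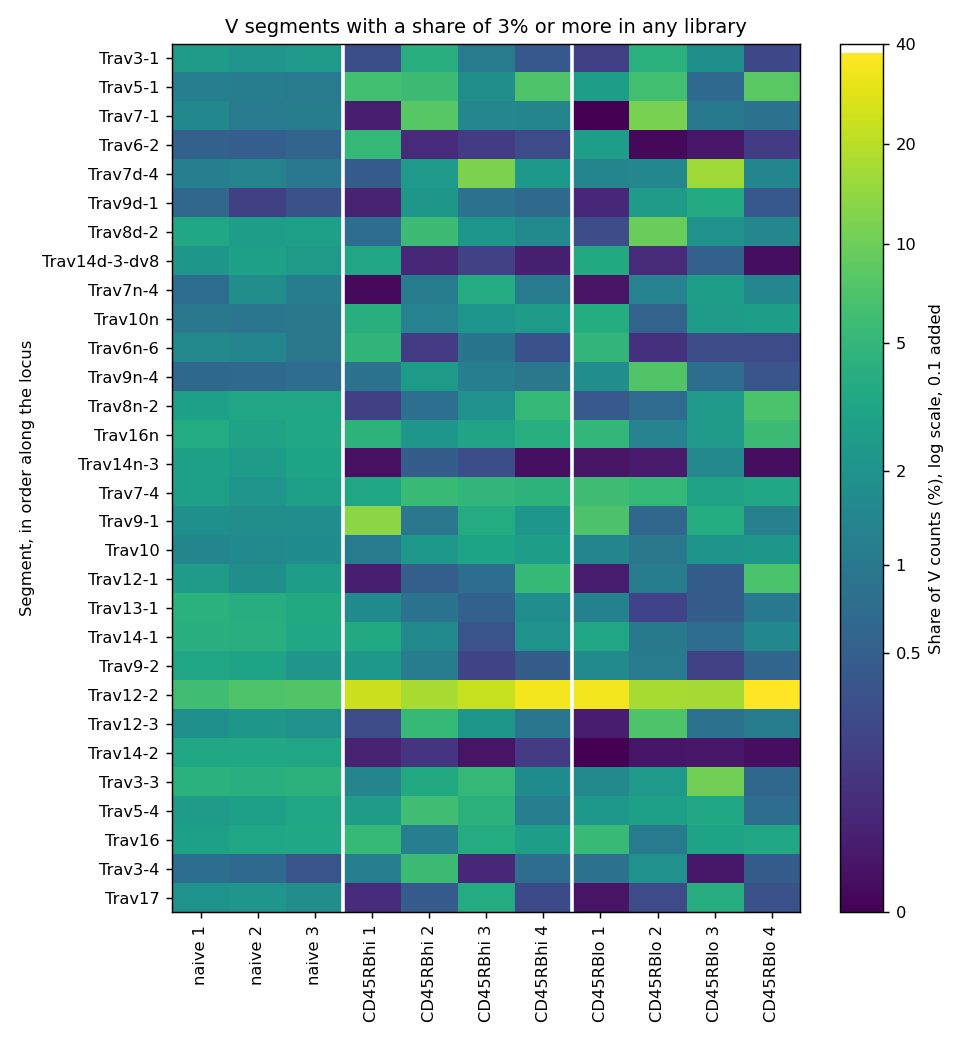
Share of V counts (%, colour on a log scale after adding 0.1) of the V segments that reached 3% in any library, in order along the locus, by library. Rows such as Trav7-1, Trav7d-4 and Trav12-1 are bright in both memory libraries of 1 number, and Trav12-2 is bright in all 8 memory libraries.

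Across all genes, deviations from the group mean also correlated between same-numbered memory libraries (0.191 to 0.452, at most 0.0284 for different numbers). Such deviations cancel within a group, so positive same-number values push those of different numbers down, and the low values are no separate evidence. A fit of the memory libraries alone took the number as a block. Of 50 V and 12 J segments tested in that fit, 3 V segments were higher in CD45RBhi and 0 lower, where 2.52% of 12637 genes were higher and 3.08% lower. Trav9-1 was at 13.4%, 0.962%, 3.77% and 2.15% of V counts in CD45RBhi and at 7.05%, 0.608%, 3.80% and 1.22% in CD45RBlo (0.75 ± 0.152, adjusted p = 0.0163). Trav5-4 was at 2.54%, 5.98%, 4.39% and 1.16% against 2.24%, 2.78%, 3.30% and 0.728% (0.76 ± 0.172, adjusted p = 0.0246). Trav3-4 was at 1.21%, 5.66%, 0.0914% and 0.729% against 0.841%, 1.91%, 0.0475% and 0.481% (1.09 ± 0.253, adjusted p = 0.0271).

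By share, CD45RBhi was above CD45RBlo in 3 of 4 numbers for Trav9-1 and in 4 of 4 for Trav5-4 and Trav3-4. Total V counts were higher in CD45RBhi in 4 of 4 numbers (263 to 395 CPM against 224 to 353). Relative to total V counts only Trav3-4 passed (0.97, adjusted p = 0.0389), with Trav9-1 at adjusted p = 0.0549. With 1 number left out in turn, 1 or 2 of these segments passed. Without the block their adjusted p ran from 0.618 to 0.772 in the fit of all 3 groups and from 0.753 to 0.853 when only the 8 memory libraries were fitted, and the direction of Trav9-1 turned without CD45RBhi replicate 1 (-0.29) and that of Trav3-4 without CD45RBhi replicate 2 (-0.31).

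Genes that build and carry the receptor were read beside the segments. Of 7 genes of the receptor complex, 2 rose in CD45RBhi against naive, a share near the 22.3% of all genes. The CD3 signalling chains Cd3d and Cd3e rose in CD45RBhi against naive by 0.22 and 0.23 log2 units (adjusted p = 0.0291 and 0.0359), and both calls were lost without any 1 naive library (adjusted p from 0.0557 to 0.116) and with library size scaling (0.474 and 0.400). In CD45RBlo against naive and between the memory groups 0 of the 7 passed. After TMM scaling Trac, the constant region, had 1202 ± 3.00 CPM in naive libraries, 1379 ± 266 in CD45RBhi and 1327 ± 329 in CD45RBlo, and did not pass. Rag1 and Rag2, the recombinase, had 0 counts in all libraries. Dntt, which adds untemplated bases at the junction, had 333, 235 and 341 counts in naive and 0 in all memory libraries, at least 447-fold lower in CD45RBhi and 425-fold lower in CD45RBlo (3 counts over the group). Of 10 tested genes of recombination and end joining, 1 rose and 2 fell in CD45RBhi against naive, and 1 rose and 4 fell in CD45RBlo, Dntt among those that fell. Beside them 22.3% of all genes rose and 19.1% fell in CD45RBhi, and 22.4% and 19.8% in CD45RBlo. Polm, a polymerase of end joining, rose by 0.48 and 0.59. Xrcc6, which encodes the Ku70 end-binding protein, fell by 0.42 and 0.47, and the ligation factors Xrcc4 (-0.41) and Nhej1 (-0.64) fell in CD45RBlo. The Xrcc4 call was lost without any 1 naive library (adjusted p from 0.0883 to 0.119), the Nhej1 call without naive replicate 2 (0.104), the CD45RBhi call of Xrcc6 without naive replicate 1 (0.0549) and that of Polm with library size scaling (0.0699). Between the memory groups 0 of the 10 passed, and with the number as a block 1 of 9 did, where 2.52% of all genes were higher. This was Xrcc5, which encodes Ku80, higher in CD45RBhi by 0.35 (adjusted p = 0.0489), a call lost without number 1, 3 or 4 (adjusted p from 0.0819 to 0.233).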

How the data were processed

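Gene expression was measured by RNA sequencing in 11 libraries. The authors deposited raw read counts per gene, without normalization, in 1 table of all libraries. Builds mm10 and GRCm38 and the tools SAMtools, DESeq2 and featureCounts appear in the submitters' processing notes. Aligner, annotation release, read length, strandedness and the handling of reads that match several places: not given in the sources used here. Such reads can move counts between near-identical V segments. Whether other annotated genes of GENCODE M21 overlap the J segments was not tested.

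Shares were computed within V and within J counts. Genes were kept with filterByExpr (minimum count 10), scaled by TMM and tested with edgeR 4.0.16 (quasi-likelihood F test, two-sided, Benjamini-Hochberg over all genes, threshold 0.05) in R 4.3.3, with all 3 groups in 1 fit, and DESeq2 1.42.0 as an alternative. CPM means of single genes use TMM-scaled libraries, and those of sums use total counts. Permutation tests used scipy 1.17.1. Scripts were tested on simulated data. The 4 replicate numbers were taken as pairs of memory libraries because all same-number correlations were over 0.1, a pairing read from the counts, since the labels give none. Other settings were other scalings, total V or J counts as reference, no filter, and each library left out. Intervals and limits cover counting error only.

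The members, lists, tests and settings were chosen with earlier results of these data known. Segments were named if among the 5 highest of a group, at 10% or more in a library, restricted to 1 number, called with the block, called in both memory groups at 10 CPM or more, or part of invariant receptors. Trav2, Trav10n, Trav19, Traj8, Traj26 and the segments just outside the rule of number restriction were named after their values were seen.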

Additional observations from a re-analysis of the deposited data

Results flagged for a closer look

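Of 50 shares of named segments in the groups of 4 libraries, 3 had a library whose gap to the nearest other, relative to the range of its group, passed Dixon's 95% critical value. Chance flags about 1 in 20 groups. Trav3-3, a V segment, was at 10.5% in CD45RBlo replicate 3 and at 0.624% to 2.31% in the other CD45RBlo libraries. CD45RBhi replicate 3 had 5.12%, the highest of its group. Traj18 was at 12.4% of J counts in CD45RBlo replicate 4 and at 8.71% to 8.98% in the others, and CD45RBhi replicate 4 also had the highest share of its group, 11.9%. Trav11 was at 0.0109% in CD45RBhi replicate 2 from 1 count, with 0 counts in the others.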

How the results depend on the processing

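The difference in the effective number of V segments between naive and memory cells kept its direction under every setting tried (5.51 with families summed). It was 28.5 to 29.3 with 1 library left out (p from 0.0571 to 0.133, exact permutation test, two-sided). With the 8 memory libraries as single values and no replicate block it was 28.9 with p = 0.0121 (exact permutation test). This is the smallest p that arrangement can give. It counts same-numbered memory libraries as independent, although their V shares were close to each other, so it overstates the evidence. Same-number distances with 1 number left out were 16.7 to 19.4 for V and 20.4 to 22.5 for J shares, each at p = 0.167 (exact permutation test, one-sided), the smallest that 3 numbers allow. For J segments the difference in effective number ran from -0.29 (without CD45RBhi replicate 3) to 1.35 with 1 library left out, and was 2.76 by the Shannon index and 3.36 without Traj17 to Traj21, and the share from Traj31 upstream from -0.35 (without CD45RBhi replicate 3) to 1.96 points, or -1.06 with the boundary at Traj25. The cause was not tested. Between the memory groups 3 segments were called with the replicate block, 1 with the block relative to total V or J counts (a setting chosen after seeing the data, as were those without Trav12-2 and without Traj17 to Traj21), 1 to 2 with the block and 1 number left out, and 0 to 2 over all settings with 1 library or number left out. Against naive, 11 to 19 segments were called in CD45RBhi and 14 to 21 in CD45RBlo with 1 library left out, and fewer samples enter those fits. Among the single segments followed under each setting, 144 results stayed on their side of the threshold, 25 lost and 9 gained a call. The direction turned in 2, Trav3-4 (-0.31 to 2.36 with 1 library or number left out) and Trav9-1 (-0.29 to 1.69). Results that stayed include those between the memory groups that were not called at the start. Trav2, Trav10n, Trav19 and Traj26 are not in these counts, and the lost calls of Trav10n and Traj26 are given above. J counts of 287 to 649 per library limit what can be seen in J shares.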

Other observations

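Other V families also followed the replicate number in memory cells. Trav6, 15 segments, held 13.1% and 11.2% of V counts in CD45RBhi and CD45RBlo of number 1 and 1.72% to 3.80% in the other memory libraries (naive 5.35% ± 0.241). Trav7, 14 segments, held 19.2% to 24.7% in numbers 2 and 3 and 4.58% to 10.6% in numbers 1 and 4 (naive 10.8% ± 0.246). Segments from Trav17 to the J end of the V cluster held 4.61% and 4.77% in number 3, close to the naive 4.58% to 4.89%, and 0.306% to 1.52% in the other numbers. The d copies of the V cluster held 16.9% and 24.9% in number 3 and 4.62% to 15.3% elsewhere in memory. In number 3 Trav7d-4, whose counts are uncertain because of near-identical copies, held 11.7% and 15.9% of V counts. These families and parts of the V cluster were picked after their values were seen and were not tested.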
